A study of Mus musculus with 22 samples.

Results

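Gpr17, Neu4, Enpp6, Myrf, Bcas1, Sirt2, Cspg4, Luzp2 and Nkx2-9 were followed as a set of 9 oligodendrocyte commitment genes through the conversion of mouse embryonic fibroblasts into induced neural progenitor cells. The 9 genes are 9 of 22517 genes with a symbol in the deposited tables, and they were chosen by their FPKM over all 11 groups, with earlier results of these data known. Their levels and the differences between groups in those levels are therefore a description, and no test was made on them. FPKM (fragments per kilobase of transcript, scaled to the mapped fragments of the library) were summed over the RefSeq transcripts of a gene, and 8 of the 9 genes reached 1 FPKM in at least 2 libraries. Nkx2-9 did not.

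The series holds 22 libraries of poly(A)-enriched RNA from C57BL/6 mice, 2 for each of 11 groups. The giNPC P6 group is an established line of induced neural progenitors at passage 6, and pre-NPC is the primary clusters, similar to neurospheres, that came before a line. Brain-NPC are neural progenitors that the labels derive from neonatal brain, and Teratoma is tumour tissue whose source cells the labels do not name. The other 14 libraries are fibroblast cultures under induction at Day 1, Day 4, Day 7, Day 10, Day 14, Day 17 and Day 21. The labels name no factor used for induction and give giNPC P6 as an established line, with no word on whether both libraries come from the same one. Nothing in the labels ties the 2 libraries of a group to separate cultures, lines or animals, so p-values cover the spread between libraries, which may be technical.

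Oligodendrocytes are the glial cells that wrap axons of the central nervous system in myelin. They arise from proliferating precursors, which carry the proteoglycan NG2 and the PDGF receptor alpha and are specified by Olig and Sox10 transcription factors. A precursor that leaves the cycle passes through a short committed stage before it makes myelin, and genes such as Gpr17, Enpp6 and Bcas1 are known for their high level in or near that stage.

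Between 3084428 and 9689996 reads per library were counted in transcripts. All 7 neural progenitor markers were at 1 FPKM or more in giNPC P6, pre-NPC and Brain-NPC, as were all 8 fibroblast markers at Day 1 and every marker of the 7 cell types examined in Teratoma. The libraries of giNPC P6 stand apart from each other: replicate 1 and replicate 2 had 64.7 and 2.13 FPKM of Xist, 0 and 29.8 FPKM of the Y-linked Eif2s3y, and 44.8 and 187 FPKM of Olig2. Those of pre-NPC had 1.57 and 22.2 FPKM of Eif2s3y and 30 and 49.4 of Xist. Eif2s3y was at 34.1 to 57.8 FPKM in the 14 libraries of the induction days and at 0.0417 to 0.142 in Teratoma and Brain-NPC. Xist was at 0 to 0.196 FPKM on the induction days, 45.3 and 46.5 in Brain-NPC and 3.87 and 4.22 in Teratoma. In comparisons across these groups, the sex or source of the cells and the group cannot be told apart. In these bulk samples fewer cells of a type and less RNA per cell cannot be told apart. Other lineage genes were tested with limma on log2(FPKM + 1) over 15658 genes, 2-sided with Benjamini-Hochberg adjustment. Calls needed both an adjusted p under 0.05 and a 2-fold difference on that scale, which understates the change of genes near 0.

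Day 17 was the high point of the induction for most of the 9 genes. Over the 7 days the mean FPKM was highest at Day 17 for 6 of the 9, namely Gpr17, Neu4, Myrf, Bcas1, Sirt2 and Luzp2, and 22% of all 15658 genes had their highest day there. For 5 of the 9 (Gpr17, Neu4, Myrf, Bcas1 and Luzp2) the Day 17 mean was at least 2 times that of Day 14 and of Day 21, against 6.75% of all genes. Over all 11 groups the highest means lay in different groups. Gpr17, Bcas1 and Sirt2 were highest at Day 17, Neu4 and Enpp6 in pre-NPC, Myrf in Teratoma, Luzp2 in Brain-NPC, Cspg4 at Day 4 and Nkx2-9 at Day 10. Only for Gpr17, Luzp2 and Nkx2-9 was that group beyond the library spread of the next in order. Of all genes, 6.75% were highest at Day 17, 9.12% in pre-NPC, 27.0% in Teratoma, 16.2% in Brain-NPC, 7.19% at Day 4 and 3.73% at Day 10. In the line itself, giNPC P6, none of the 9 was highest, and only 4.71% of all genes were. Among the days Cspg4 and Nkx2-9 were highest before Day 14, so the set did not move as a single group. Enpp6 had its highest mean at Day 21, within the spread of Day 17.

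**Figure D1:**
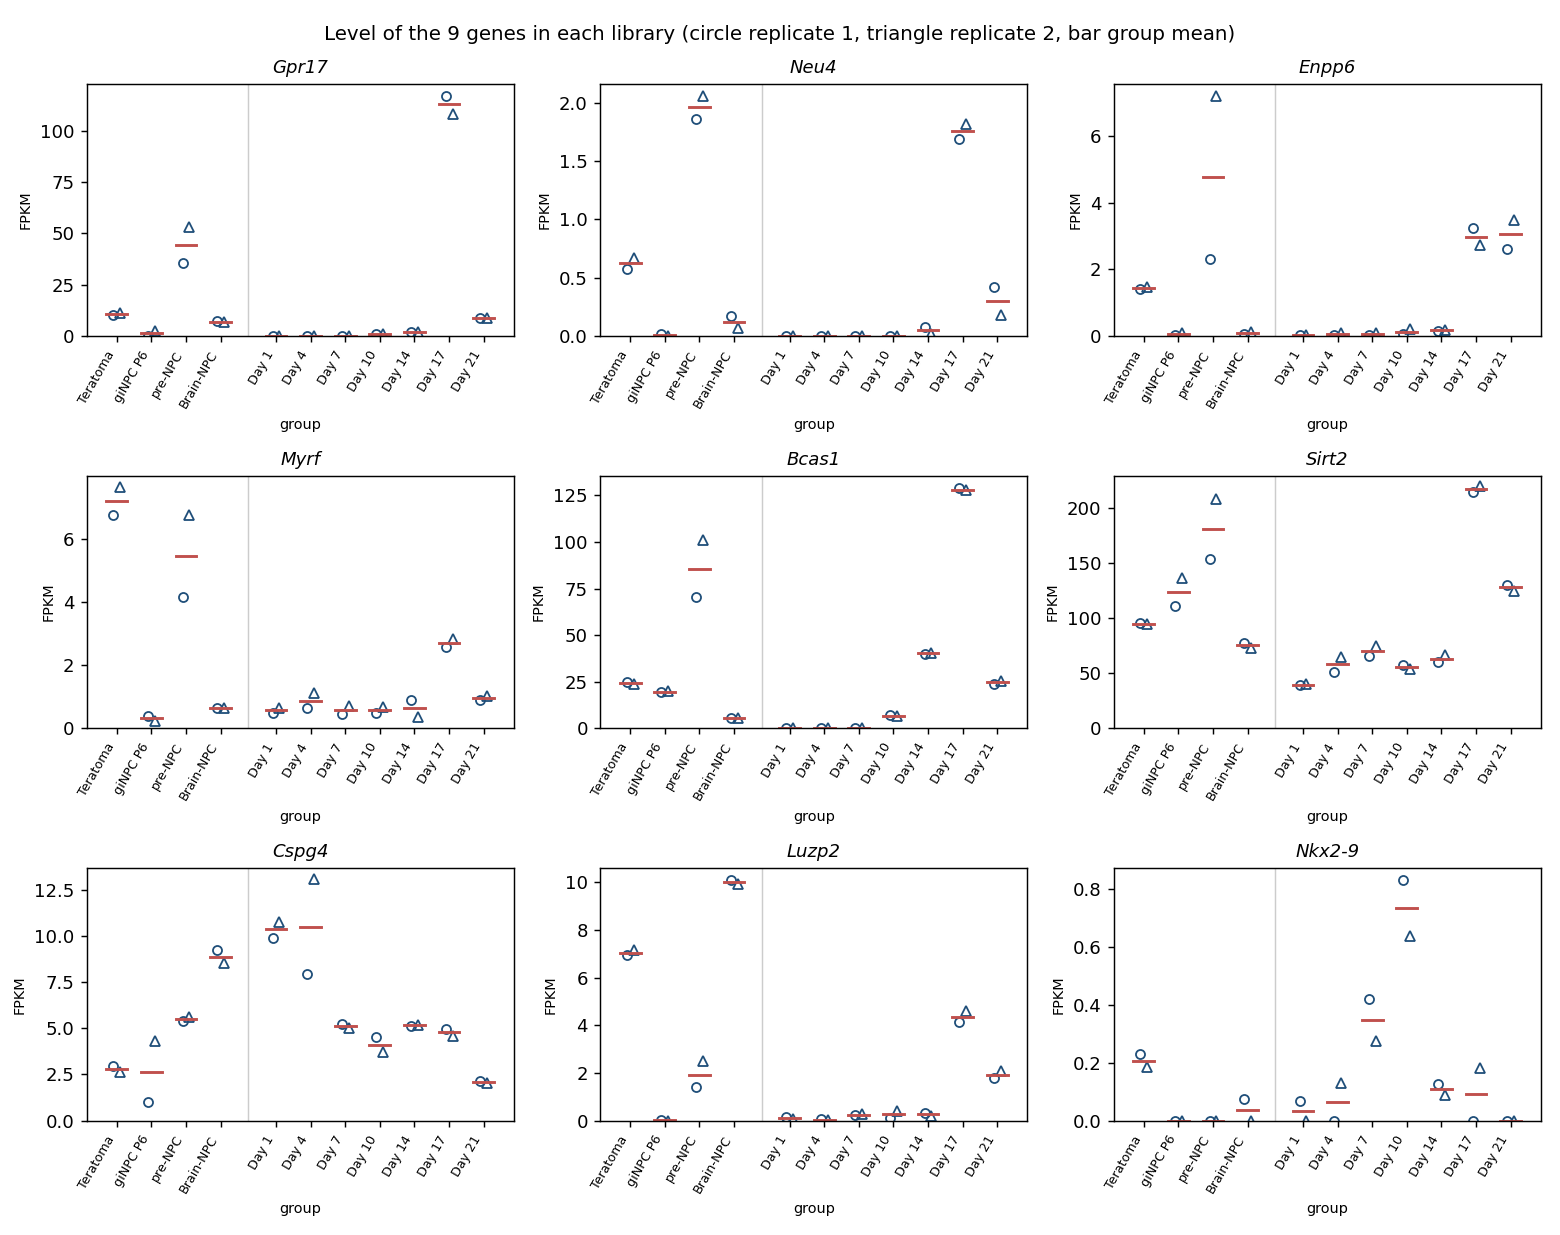
FPKM of each of the 9 genes (1 panel a gene, y axis in FPKM from 0, scales differ) in Teratoma, giNPC P6, pre-NPC, Brain-NPC and the 7 induction days; circles are replicate 1, triangles replicate 2 and bars the group mean. Gpr17 and Bcas1 are highest at Day 17 and in pre-NPC, while Cspg4 is highest at Day 1 and Day 4 and Nkx2-9 stays under 1 FPKM.

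The stretch before the start of 4 genes that were higher together at Day 17 than at Day 14 is printed here because these members shared the step and differ in composition. Each is the 250 bases before the start of the gene in RefSeq (GRCm38.p6, a later build than that of the files). Of the 9 members 6 matched an entry of that table, in a search that left out the chromosome of Gpr17. Capitals mark a match to 1 of 5 motifs searched on both strands.
Neu4, chr1:94020243-94020492, plus strand: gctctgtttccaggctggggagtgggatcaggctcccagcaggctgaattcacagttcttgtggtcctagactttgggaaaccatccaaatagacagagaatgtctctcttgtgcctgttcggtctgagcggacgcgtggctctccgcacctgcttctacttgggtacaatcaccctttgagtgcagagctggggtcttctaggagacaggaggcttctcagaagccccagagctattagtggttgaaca
Enpp6, chr8:46986637-46986886, plus strand: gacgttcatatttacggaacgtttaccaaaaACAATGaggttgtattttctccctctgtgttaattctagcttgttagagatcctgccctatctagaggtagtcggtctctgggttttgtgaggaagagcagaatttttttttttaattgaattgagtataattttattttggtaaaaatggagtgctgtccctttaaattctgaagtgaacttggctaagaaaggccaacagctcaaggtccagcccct
Sirt2, chr7:28766502-28766751, plus strand: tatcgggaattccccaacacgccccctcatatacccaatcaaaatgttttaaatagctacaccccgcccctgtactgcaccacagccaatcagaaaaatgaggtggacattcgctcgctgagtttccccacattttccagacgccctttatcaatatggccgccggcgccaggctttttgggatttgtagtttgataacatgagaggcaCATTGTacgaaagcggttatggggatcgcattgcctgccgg
Luzp2, chr7:54834995-54835244, plus strand: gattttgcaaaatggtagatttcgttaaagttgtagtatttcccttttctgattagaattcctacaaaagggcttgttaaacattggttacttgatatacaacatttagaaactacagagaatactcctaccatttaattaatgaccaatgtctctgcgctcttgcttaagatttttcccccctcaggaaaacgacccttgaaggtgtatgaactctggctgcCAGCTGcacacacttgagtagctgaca
The motifs were ACAAAG and ACAATG (cores bound by SOX factors), CAGCTG (an E-box), CACTTA (a core bound by NKX2 factors) and TATAAA, and none of them overlapped another in these stretches. The Enpp6 stretch held ACAATG from 219 to 214 bases before the start. In Sirt2 the same letters lay on the opposite strand from 41 to 36 bases before the start. Luzp2 held CAGCTG, which reads the same on both strands, from 27 to 22 bases before it, and Neu4 held none of the 5 motifs. Of 32851 such promoters in the table, 16.5% held ACAAAG, 10.7% ACAATG, 13% CAGCTG, 7.9% CACTTA and 12.4% TATAAA, so these matches are common. The share of G and C was 38.4% for Enpp6 and Luzp2, 50% for Sirt2 and 53.6% for Neu4, against a median of 52.4% over all promoters.

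Cspg4 encodes NG2, the surface proteoglycan that marks oligodendrocyte precursors and also pericytes (chromosome 9, 56712911 to 56747677, mm9). Cspg4 had 2.97 and 2.63 FPKM in Teratoma, 1.0 and 4.32 in giNPC P6, 5.38 and 5.61 in pre-NPC and 9.25 and 8.53 in Brain-NPC. During induction its FPKM were 9.93 and 10.8 on Day 1, 7.96 and 13.1 on Day 4, 5.24 and 5.02 on Day 7, 4.53 and 3.7 on Day 10, 5.13 and 5.2 on Day 14, 4.99 and 4.57 on Day 17 and 2.16 and 2.03 on Day 21. The first 2 sampled days were the high ones, both Day 21 libraries lay below every other day, and the giNPC P6 libraries differed more than those of any other group outside Day 4. The mean was 2.09 ± 0.0919 FPKM at Day 21 and 10.4 ± 0.615 at Day 1 (SD, n = 2 each), a log2 difference of -1.88 ± 0.063 (SE). Day 4 and Day 1 did not differ beyond their spread, and neither did pre-NPC, Day 14, Day 7, Day 17 and Day 10 from their neighbours in that order.

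Markers of pericytes, which also carry NG2, and of fibroblasts were summed over the same libraries. The summed FPKM of 9 pericyte and mural markers was 128 and 124 on Day 1, 101 and 124 on Day 4, 109 and 102 on Day 7, 89.7 and 85.1 on Day 10, 28.9 and 36.4 on Day 14, 24.8 and 20.9 on Day 17 and 170 and 189 on Day 21. In the other groups that sum was 584 and 579 in Teratoma, 11.8 and 19.5 in giNPC P6, 25.5 and 30.2 in pre-NPC and 29.6 and 30.2 in Brain-NPC. Acta2, a smooth muscle actin gene that other contractile cells express too, gave 126 and 143 FPKM of the sum at Day 21, 31.8 and 33 at Day 1 and 369 and 368 in Teratoma. The sum of the other 8 markers, taken after these values were seen, was 96.4 and 91.3 on Day 1, 93.3 and 118 on Day 4, 90 and 86.8 on Day 7, 80.4 and 73 on Day 10, 25.6 and 31.2 on Day 14, 20.8 and 17.8 on Day 17 and 44.5 and 46 on Day 21. Without Acta2 the sum was thus lower at Day 21 than at Day 1, as Cspg4 was, while with it the sum was higher. Pdgfrb, the PDGF receptor gene of pericytes, had 7.44 and 9.4 FPKM on Day 21 and 40.5 and 38.6 on Day 1. Anpep, Mcam and Rgs5 were lower on Day 21 too, whereas Des, Notch3, Kcnj8 and Abcc9 were higher. Kcnj8 had 1.48 and 1.12 FPKM on Day 21, and Abcc9 was under 1 FPKM on both days. The sum of the 8 was 215 and 211 in Teratoma, 11.8 and 19.3 in giNPC P6, 23.5 and 27.6 in pre-NPC and 26.7 and 26.8 in Brain-NPC. Of the 9 markers, 7 were at 1 FPKM or more at Day 1 and Day 21, 6 at Day 17, 3 in pre-NPC and Brain-NPC, 2 in giNPC P6 and 9 in Teratoma. Kcnj8, a channel gene of pericytes, was at 0 in both libraries at Day 1 and in Brain-NPC, and no other marker of the list was at 0 in both libraries of a group. The sum of 8 fibroblast markers was 4999 and 4908 on Day 1, 3633 and 3778 on Day 4, 2987 and 2669 on Day 7, 1963 and 1865 on Day 10, 548 and 555 on Day 14, 286 and 251 on Day 17 and 525 and 543 on Day 21. It was 2049 and 2007 in Teratoma, 6.0 and 3.21 in giNPC P6, 75.2 and 107 in pre-NPC and 135 and 143 in Brain-NPC. All 8 were at 1 FPKM or more on every day, in pre-NPC and in Teratoma, and 2 of the 8 in giNPC P6 and Brain-NPC. The part of either cell type in the level of Cspg4 was not tested.

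**Figure D2:**
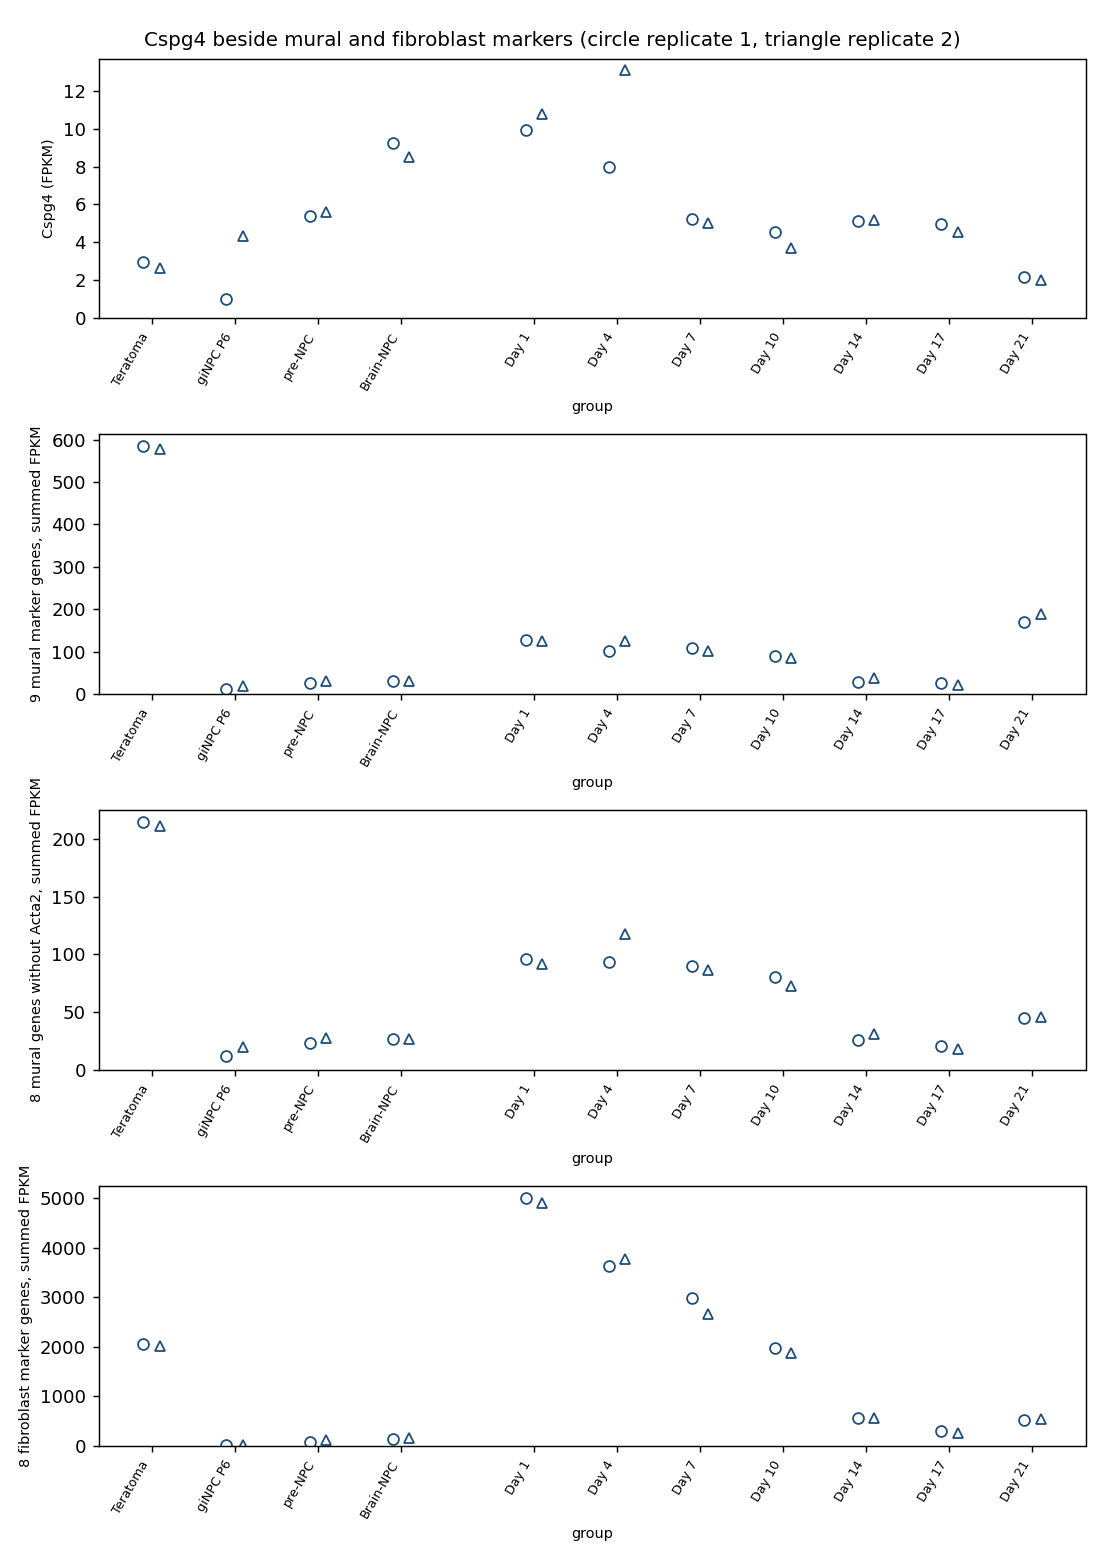
From top to bottom, FPKM of Cspg4 and the summed FPKM of 9 pericyte and mural markers, of 8 of these without Acta2 and of 8 fibroblast markers in each library, groups along the x axis; circles are replicate 1 and triangles replicate 2. The fibroblast sum is highest at Day 1, where Cspg4 is high, and the mural sum is above Day 1 at Day 21 with Acta2 and below it without Acta2.

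Luzp2 encodes a leucine zipper protein (chromosome 7, 62090615 to 62524258, mm9). Luzp2 had 6.96 and 7.14 FPKM in Teratoma, 0.0176 and 0 in giNPC P6, 1.39 and 2.48 in pre-NPC and 10.1 and 9.92 in Brain-NPC. In the cultures its FPKM were 0.13 and 0.0747 on Day 1, 0.0574 and 0.0138 on Day 4, 0.214 and 0.272 on Day 7, 0.128 and 0.385 on Day 10, 0.31 and 0.209 on Day 14, 4.14 and 4.58 on Day 17 and 1.78 and 2.09 on Day 21. Both Brain-NPC libraries were above all others, and the lowest levels were those of giNPC P6, with no counted read in either library, and of Day 4, with 1 and 0. Day 17 averaged 4.36 ± 0.311 FPKM and Day 14 0.259 ± 0.0712 (SD, n = 2 each), a ratio of 16.8 and a log2 difference of 2.09 ± 0.0826 (SE). Brain-NPC, Teratoma, Day 17 and Day 21 followed each other beyond their spread, and Day 21 and pre-NPC did not differ beyond theirs, nor did Day 4 and giNPC P6.

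Nkx2-9 is a homeobox gene of the ventral neural tube, close to the floor plate and related to Nkx2-2 (chromosome 12, 57712384 to 57714271, mm9). Nkx2-9 had 0.229 and 0.185 FPKM in Teratoma, 0 and 0 in giNPC P6, 0 and 0 in pre-NPC and 0.0756 and 0 in Brain-NPC. On the induction days its FPKM were 0.0683 and 0 on Day 1, 0 and 0.131 on Day 4, 0.42 and 0.274 on Day 7, 0.831 and 0.637 on Day 10, 0.126 and 0.0897 on Day 14, 0 and 0.182 on Day 17 and 0 and 0 on Day 21. No library reached 1 FPKM, and the 2 Day 10 libraries, with 10 and 3 counted reads, were the highest. The deposited confidence interval of Cufflinks for them ran from 0.33 to 1.33 and from 0.284 to 0.991 FPKM, against 0 to 0 for the libraries of pre-NPC, giNPC P6 and Day 21. By the spread of the 2 libraries, Day 10 lay beyond Day 7, the next in order. The Cufflinks intervals of the Day 7 libraries overlapped those of Day 10. They ran from 0.0444 to 0.796 and from 0 to 0.591 FPKM, on 0 and 1 counted reads. Shh, which marks the floor plate, had 0.0656 and 0.128 FPKM at Day 10, and Foxa2, which marks it too, had 0.293 and 0.163. Of the 6 floor plate markers, 3 were at 1 FPKM or more at Day 10 and 6 in Teratoma, with sums of 25.8 and 22.6 FPKM at Day 10 and 64.9 and 63.8 in Teratoma. The sum was also 66.6 and 71.9 FPKM at Day 17 and 88.3 and 83.4 in Brain-NPC. Ntn1, 1 of the 6, gave 22.3 and 19.9 FPKM of the Day 10 sum and had 19.6 and 19.9 on Day 1. The part of these markers in the level of Nkx2-9 was not tested.

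Gpr17 encodes a G protein-coupled receptor of committed oligodendrocyte precursors whose level falls before myelin is made (chromosome 18, 32102653 to 32109290, mm9). Gpr17 had 10.5 and 11.4 FPKM in Teratoma, 0.341 and 2.4 in giNPC P6, 35.6 and 53 in pre-NPC and 7.19 and 7.08 in Brain-NPC. The induction cultures had 0 and 0.0455 on Day 1, 0.0292 and 0 on Day 4, 0.0542 and 0.217 on Day 7, 1.13 and 1.12 on Day 10, 1.87 and 1.87 on Day 14, 117 and 108 on Day 17 and 8.63 and 8.85 on Day 21, in FPKM. The step at Day 17 stood out: both libraries were above every other library, and the next highest were those of pre-NPC. The mean was 113 ± 6.15 FPKM at Day 17 and 1.87 ± 0.00143 at Day 14 (SD, n = 2 each), and the Day 17 mean was 60.3 times as high. The Cufflinks interval in the Day 14 libraries, from 1.55 to 2.19 and from 1.49 to 2.25 FPKM, was wider than that SD. By Day 21 the mean was 8.74 ± 0.156 FPKM, so Day 17 was 12.9 times as high as Day 21. Day 17, pre-NPC, Teratoma, Day 21, Brain-NPC and Day 14 followed each other beyond their spread, and Day 14, giNPC P6 and Day 10 did not.

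Bcas1 encodes a protein found in oligodendrocytes that are starting to make myelin (chromosome 2, 170172491 to 170253345, mm9). Bcas1 had 24.8 and 24 FPKM in Teratoma, 19.4 and 19.9 in giNPC P6, 70.3 and 101 in pre-NPC and 5.48 and 5.61 in Brain-NPC. Through the induction its FPKM were 0 and 0.146 on Day 1, 0.157 and 0.102 on Day 4, 0.46 and 0.344 on Day 7, 7.07 and 6.57 on Day 10, 40.1 and 40.2 on Day 14, 129 and 128 on Day 17 and 24 and 25.6 on Day 21. Bcas1 was high earlier than Gpr17. At Day 14 it averaged 40.2 ± 0.0752 FPKM, above both Day 21 libraries, while Gpr17 averaged 1.87 ± 0.00143 (SD, n = 2 each). The ratio of Day 17 to Day 14 was 3.19 (log2 difference 1.65 ± 0.00311, SE). That SE reflects only how closely the 2 libraries of each group agreed. The Cufflinks interval of its main transcript, NM_029815, was wider, from 36.6 to 40.5 and from 35.3 to 39.9 FPKM in the Day 14 libraries. In the line Bcas1 stayed well above the brain cells, with 19.6 ± 0.319 FPKM in giNPC P6 against 5.55 ± 0.091 in Brain-NPC (SD, n = 2 each). In 16 libraries with at least 1 FPKM, transcript NM_029815 carried between 78.5% and 100.0% of the gene's FPKM (median 92.4%), and NM_001164369 carried up to 21.5%.

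**Figure D3:**
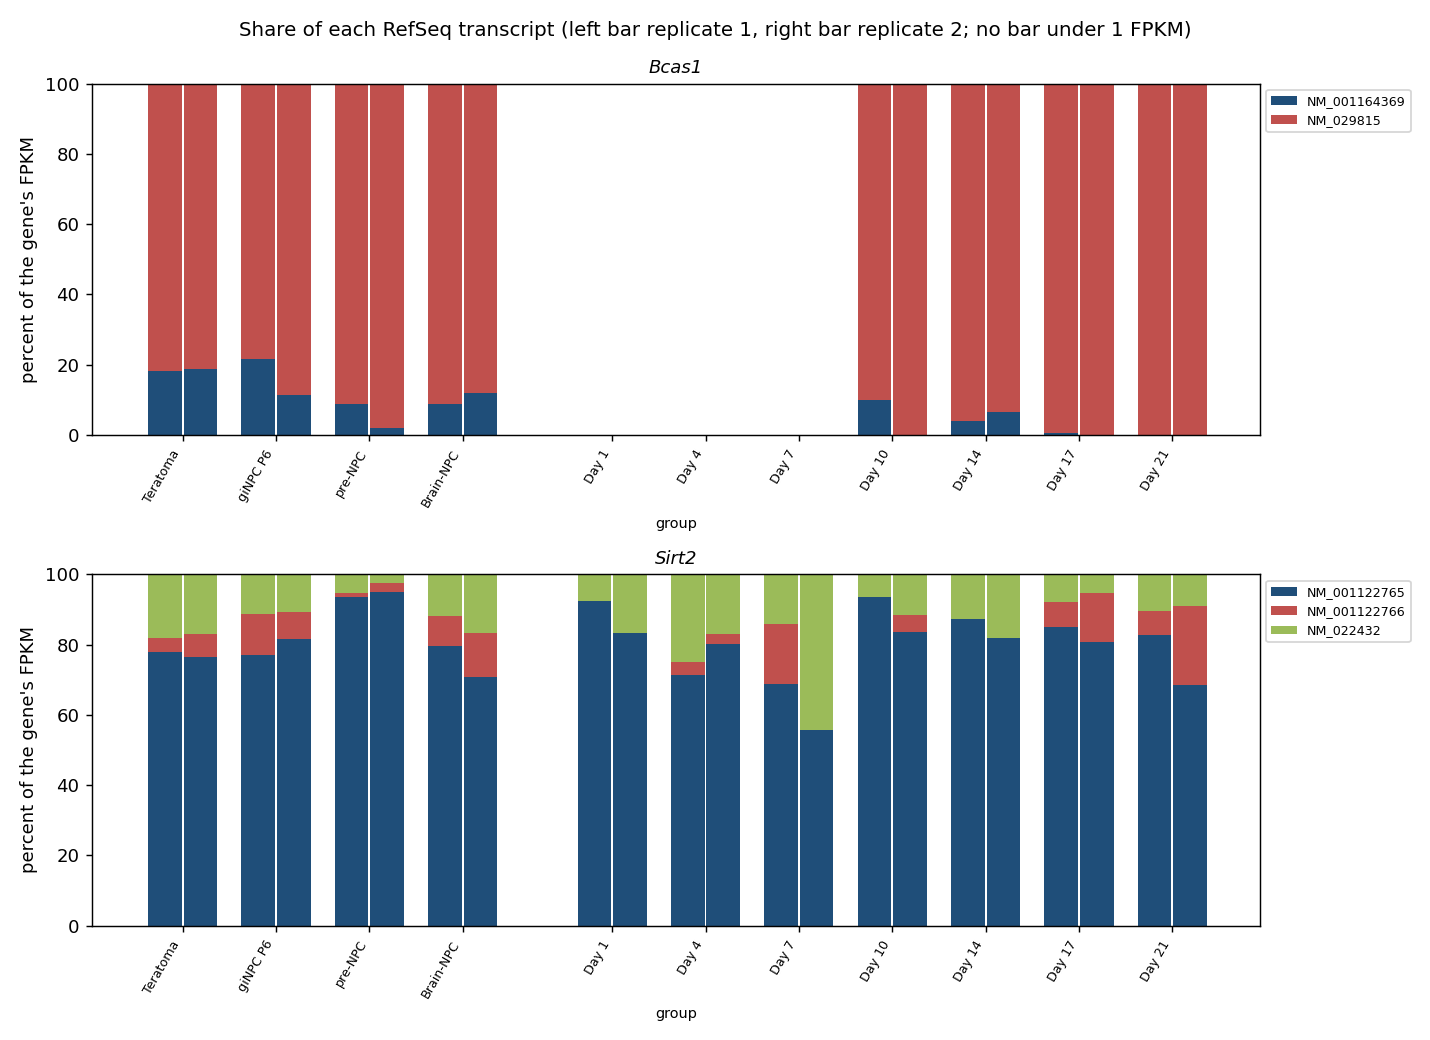
Share of the gene's FPKM (y axis, percent) carried by each RefSeq transcript of Bcas1 (top) and Sirt2 (bottom), 1 bar a library (left replicate 1, right replicate 2), with no bar under 1 FPKM. NM_029815 carries at least 78.5% of Bcas1 wherever it is drawn, and NM_001122765 carries 55.6% to 95.0% of Sirt2.

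Neu4 encodes a sialidase, an enzyme that trims sialic acid from glycans such as the polysialic acid of NCAM (chromosome 1, 95917070 to 95924907, mm9). Neu4 had 0.579 and 0.672 FPKM in Teratoma, 0.0208 and 0 in giNPC P6, 1.86 and 2.06 in pre-NPC and 0.169 and 0.0695 in Brain-NPC. Along the induction its FPKM were 0 and 0 on Day 1, 0 and 0 on Day 4, 0 and 0 on Day 7, 0 and 0 on Day 10, 0.0792 and 0.0223 on Day 14, 1.69 and 1.82 on Day 17 and 0.419 and 0.184 on Day 21. The Day 17 and pre-NPC libraries formed the high end, close to each other, with Teratoma next. Means were 1.76 ± 0.0904 FPKM at Day 17 and 0.0508 ± 0.0402 at Day 14 (SD, n = 2 each). With 4 and 0 counted reads at Day 14, no ratio is given. The deposited Cufflinks interval ran from 1.32 to 2.06 and from 1.41 to 2.23 FPKM in the Day 17 libraries. The pre-NPC and Day 17 means did not differ beyond their spread.

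Enpp6 encodes a choline-specific phosphodiesterase of newly forming oligodendrocytes (chromosome 8, 48072279 to 48180249, mm9). Enpp6 had 1.4 and 1.47 FPKM in Teratoma, 0.0313 and 0.109 in giNPC P6, 2.31 and 7.2 in pre-NPC and 0.0562 and 0.13 in Brain-NPC. Over the induction its FPKM were 0.0509 and 0.0263 on Day 1, 0.0507 and 0.0977 on Day 4, 0.0314 and 0.103 on Day 7, 0.0565 and 0.22 on Day 10, 0.142 and 0.201 on Day 14, 3.23 and 2.73 on Day 17 and 2.6 and 3.49 on Day 21. Day 17 and Day 21 overlapped, so Enpp6 was not lower after Day 17. The pre-NPC libraries fell on both sides of that level. Enpp6 averaged 2.98 ± 0.356 FPKM at Day 17 and 0.172 ± 0.0415 at Day 14 (SD, n = 2 each), a log2 difference of 1.76 ± 0.0984 (SE). In giNPC P6 it had 1 and 2 counted reads, so no ratio against that group is given.

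Myrf encodes a membrane-bound transcription factor that is required for myelin gene expression in the central nervous system (chromosome 19, 10282761 to 10315238, mm9). Myrf had 6.76 and 7.62 FPKM in Teratoma, 0.398 and 0.245 in giNPC P6, 4.14 and 6.74 in pre-NPC and 0.643 and 0.652 in Brain-NPC. The days gave 0.487 and 0.66 on Day 1, 0.648 and 1.11 on Day 4, 0.469 and 0.712 on Day 7, 0.497 and 0.675 on Day 10, 0.911 and 0.375 on Day 14, 2.58 and 2.84 on Day 17 and 0.885 and 1.01 on Day 21, in FPKM. Teratoma and pre-NPC were the high groups and did not differ beyond their spread, and among the days only the Day 17 libraries were clear of the rest. Myrf averaged 0.643 ± 0.379 FPKM at Day 14, 2.71 ± 0.184 at Day 17 and 0.946 ± 0.0856 at Day 21 (SD, n = 2 each). The ratio of Day 17 to Day 14 was 4.21, with 7.22 and 2.97 without replicate 1 and 2 of Day 14.

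Sirt2 encodes a deacetylase of tubulin and other proteins that is present in many cells and abundant in myelin (chromosome 7, 29551771 to 29573684, mm9). Sirt2 had 95.2 and 94.4 FPKM in Teratoma, 111 and 136 in giNPC P6, 154 and 208 in pre-NPC and 77.3 and 73 in Brain-NPC. During the induction its FPKM were 39.4 and 40 on Day 1, 51 and 65.1 on Day 4, 66 and 74.6 on Day 7, 57.5 and 53.4 on Day 10, 60.1 and 66.5 on Day 14, 214 and 220 on Day 17 and 130 and 125 on Day 21. Of the 9 genes it was the highest per length at Day 1, and its libraries ran from 39.4 FPKM at Day 1 to 220 at Day 17. The Day 17 mean of 217 ± 4.42 FPKM was 3.43 times the Day 14 mean of 63.3 ± 4.51 (SD, n = 2 each). Day 17 and pre-NPC did not differ beyond their spread. NM_001122765 carried 55.6% to 95.0% of the gene's FPKM over 22 libraries (median 81.2%), NM_022432 carried 2.55% to 44.4% (median 11.7%) and NM_001122766 up to 22.4% (median 4.42%). The highest share of NM_022432 was in replicate 2 of Day 7, and replicate 1 of that day had 14.1%.

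Pearson's r of log2(FPKM + 1) over the 22 libraries describes which genes had a like pattern. The libraries share the course of the induction and their depth, so r is a description. Gpr17 and Neu4 had an r of 0.919, Gpr17 and Sirt2 0.856, Gpr17 and Enpp6 0.851 and Gpr17 and Bcas1 0.836. It was 0.716 for Gpr17 and Luzp2, 0.699 for Gpr17 and Myrf and -0.265 for Gpr17 and Nkx2-9. Cspg4 had an r below 0 with every other member, down to -0.523 with Bcas1. The gene most like Gpr17 was Tnr (r = 0.971), which encodes the matrix protein tenascin-R, with 33.7 and 31.5 FPKM at Day 17 and 2.22 and 1.85 at Day 14. Next came Lims2 (0.956) and Kctd4 (0.947). Neu4 was most like Fa2h (0.943), which encodes the fatty acid 2-hydroxylase of myelin lipids and had 2.76 and 4.36 FPKM in pre-NPC and 0.559 and 0.687 at Day 21, then 9630013A20Rik (0.923) and Gpr17 itself. Enpp6 was most like 9630013A20Rik (0.935), Usp53 (0.924) and Angpt1 (0.92), and Myrf like Dock9 (0.964), Tmem88b (0.936) and Fry (0.932). By rank (Spearman's rho) the likeness to Myrf was lower, at 0.665 for Dock9, 0.628 for Tmem88b and 0.632 for Fry. Bcas1 was most like Klhl7 (0.968), Fam189a2 (0.965) and Rab39b (0.959), and Sirt2 like Tmem9b (0.969), Fbxo8 (0.953) and Hey2 (0.942). Cspg4 had the weakest likeness, to Ndfip2 (0.808), Fbln2 (0.776) and 1700052N19Rik (0.774). Luzp2 was most like Capn11 (0.929), Me3 (0.916) and Kcnk1 (0.906). For Nkx2-9 the closest were Zcchc5 (0.925), C7 (0.908) and Egfl6 (0.892), and Zcchc5 had 4.33 and 4.11 FPKM at Day 10.

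The day on which both libraries were first above both Day 1 libraries differed between members, and Cspg4 had no such day. Sirt2 was above its Day 1 libraries already at Day 4. Bcas1, Gpr17, Luzp2 and Nkx2-9 were above theirs at Day 7, still under 1 FPKM, and Nkx2-9 stayed so throughout. For Nkx2-9 that rested on 0 and 1 counted reads, and Luzp2 overlapped Day 1 again at Day 10. Enpp6 followed at Day 10, on 0 and 10 counted reads, and Neu4 at Day 14, both also under 1 FPKM, and Myrf at Day 17. At Day 14, 54.7% of all genes lay above Day 1 in the same sense. That share was not counted for Day 4, Day 7, Day 10 or Day 17, so this order of days is a description only. The Bcas1 mean at Day 10 was 17 times that at Day 7 and the Day 14 mean was 5.89 times that at Day 10, with no overlap at either step. Gpr17 was 8.31 times as high at Day 10 as at Day 7 (5.2 and 20.8 without replicate 1 and 2 of Day 7), though still near 1 FPKM, and 1.66 times as high at Day 14 as at Day 10. Myrf, Enpp6 and Luzp2 overlapped at both of these steps. Against Brain-NPC both Day 17 libraries were higher for 6 members and lower for 2, where 43.8% of all genes were higher and 35.2% lower in the same sense. The ratio of Day 17 to Brain-NPC was 23.1 for Bcas1, 15.8 for Gpr17, 4.18 for Myrf and 2.89 for Sirt2. For Neu4 it was 14.8, on 9 and 3 counted reads in Brain-NPC, with 25.3 and 10.4 without replicate 1 and 2 of Brain-NPC. For Enpp6, with 1 and 1 counted reads in Brain-NPC, none is given. Brain-NPC had 2.29 times the Luzp2 and 1.86 times the Cspg4 of Day 17. The clusters, pre-NPC, were lower than Day 17 in both libraries for Gpr17, Bcas1, Sirt2 and Luzp2 and higher in both for Neu4, Myrf and Cspg4, where 42.5% of all genes were lower and 26.1% higher. For Myrf that was a ratio of 2.01, and Day 17 had 2.55 times the Gpr17 of pre-NPC.

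Other genes of the lineage, none of them among the 9, were read from a list of 30 precursor genes and a list of 32 premyelinating and myelin genes, 31 of which were found. Both hold Nkx6-2. At Day 14 most precursor genes were higher than at Day 1, as were 7 of the 31 later genes (14 with a pseudocount of 0.1, 9 by edgeR and 10 by DESeq2), and Bcas1 and Gpr17 had the widest differences of the 9. Of the 9, the Day 14 libraries were all above those of Day 1 for 7, all below for Cspg4 and overlapping for Myrf, where 54.7% of all genes were higher and 24.5% lower in the same sense. By limma 15.7% of all genes were called higher and 6.96% lower. On the log2 scale Bcas1 differed by 5.27 ± 0.0984, Gpr17 by 1.49 ± 0.0321, Sirt2 by 0.66 ± 0.0726 and Cspg4 by -0.88 ± 0.0557 (SE). By limma 25 of the 30 precursor genes rose and 0 fell (1 at an unadjusted p under 0.05, 0 by edgeR and by DESeq2), with a median log2 difference of 1.87 against 0.2 over all genes. Olig1, which encodes a transcription factor of the lineage, had 317 and 392 FPKM on Day 14 and 0 and 0.572 on Day 1 (log2 difference 8.14 ± 0.24, limma adjusted p = 1.39e-12). Its partner Olig2 had 298 and 317 FPKM on Day 14 and 0.065 and 0.202 on Day 1 (log2 difference 8.09 ± 0.39, limma adjusted p = 2.95e-10). Of the later genes 1 fell (2 by edgeR and by DESeq2), with a list median of 0.26. Nfasc, an adhesion gene of axon and glia, had 9.38 and 10.9 FPKM on Day 14 and 0.146 and 0.259 on Day 1 (log2 difference 3.21 ± 0.21, limma adjusted p = 6.28e-09). Rras2, which encodes a small GTPase, was the 1 that fell by limma, with 8.38 and 7.8 FPKM on Day 14 and 22.7 and 21 on Day 1 (log2 difference -1.33 ± 0.16, limma adjusted p = 7.18e-06). Of all genes, 2452 were called higher and 1090 lower, against 1562 and 1570 under quantile normalization, 2216 and 1723 by edgeR on counts and 2170 and 1706 by DESeq2.

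Day 17 against Day 14, a comparison added after the levels of the 9 genes had been seen, held the step of the commitment genes. Of the 9, 7 were higher in both Day 17 libraries, Cspg4 was lower in both (4.99 and 4.57 FPKM at Day 17, 5.13 and 5.2 at Day 14) and Nkx2-9 overlapped, where 32.7% of all genes were higher and 37.5% lower in the same sense. By limma 4.96% of all genes were called higher and 6.37% lower. The ratio of the means was between 3.19 and 4.21 for Bcas1, Sirt2 and Myrf, and none is given for Enpp6, with 3 and 1 counted reads at Day 14. The log2 difference was 5.31 ± 0.0551 for Gpr17, 1.39 ± 0.0514 for Neu4, 1.19 ± 0.243 for Myrf, 1.76 ± 0.0746 for Sirt2 and -0.09 ± 0.0527 for Cspg4 (SE). Of the 30 precursor genes 14 rose and 0 fell by limma (2 at an unadjusted p under 0.05, 0 by edgeR and by DESeq2), with a median log2 difference of 0.88 against -0.01 over all genes. Tnr had 33.7 and 31.5 FPKM on Day 17 and 2.22 and 1.85 on Day 14 (log2 difference 3.47 ± 0.18, limma adjusted p = 4.52e-09). Of the 31 premyelinating and myelin genes 10 rose and 1 fell (2 by edgeR and by DESeq2), with a median of 0.35. Bmp4, a secreted growth factor, had 9.55 and 10.4 FPKM on Day 17 and 0.0753 and 0.48 on Day 14 (log2 difference 3.12 ± 0.14, limma adjusted p = 1.42e-09). The 1 that fell by limma was Trf, an iron carrier, with 5.54 and 4.52 FPKM on Day 17 and 70.7 and 75.5 on Day 14 (log2 difference -3.62 ± 0.52, limma adjusted p = 6.27e-05). The marker sums of astrocytes and neurons were higher at Day 17, and those of fibroblasts, macrophages and pericytes were lower. The sum of 7 astrocyte markers, all at 1 FPKM or more, was 2627 and 2453 FPKM at Day 17 and 619 and 700 at Day 14. That of 7 neuron markers was 35.5 and 30.9 at Day 17, with 6 at 1 FPKM or more, and 11.1 and 11.9 at Day 14, with 3. Fibroblast markers, 8 of 8 at 1 FPKM or more on both days, summed to 286 and 251 at Day 17 and 548 and 555 at Day 14. Macrophage markers, also 8 of 8, summed to 308 and 263 at Day 17 and 964 and 975 at Day 14, and the 9 mural markers to 24.8 and 20.9 at Day 17 and 28.9 and 36.4 at Day 14. No marker of these lists was at 0 in both libraries of a day, and their part in the Day 17 levels was not tested.

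**Figure D4:**
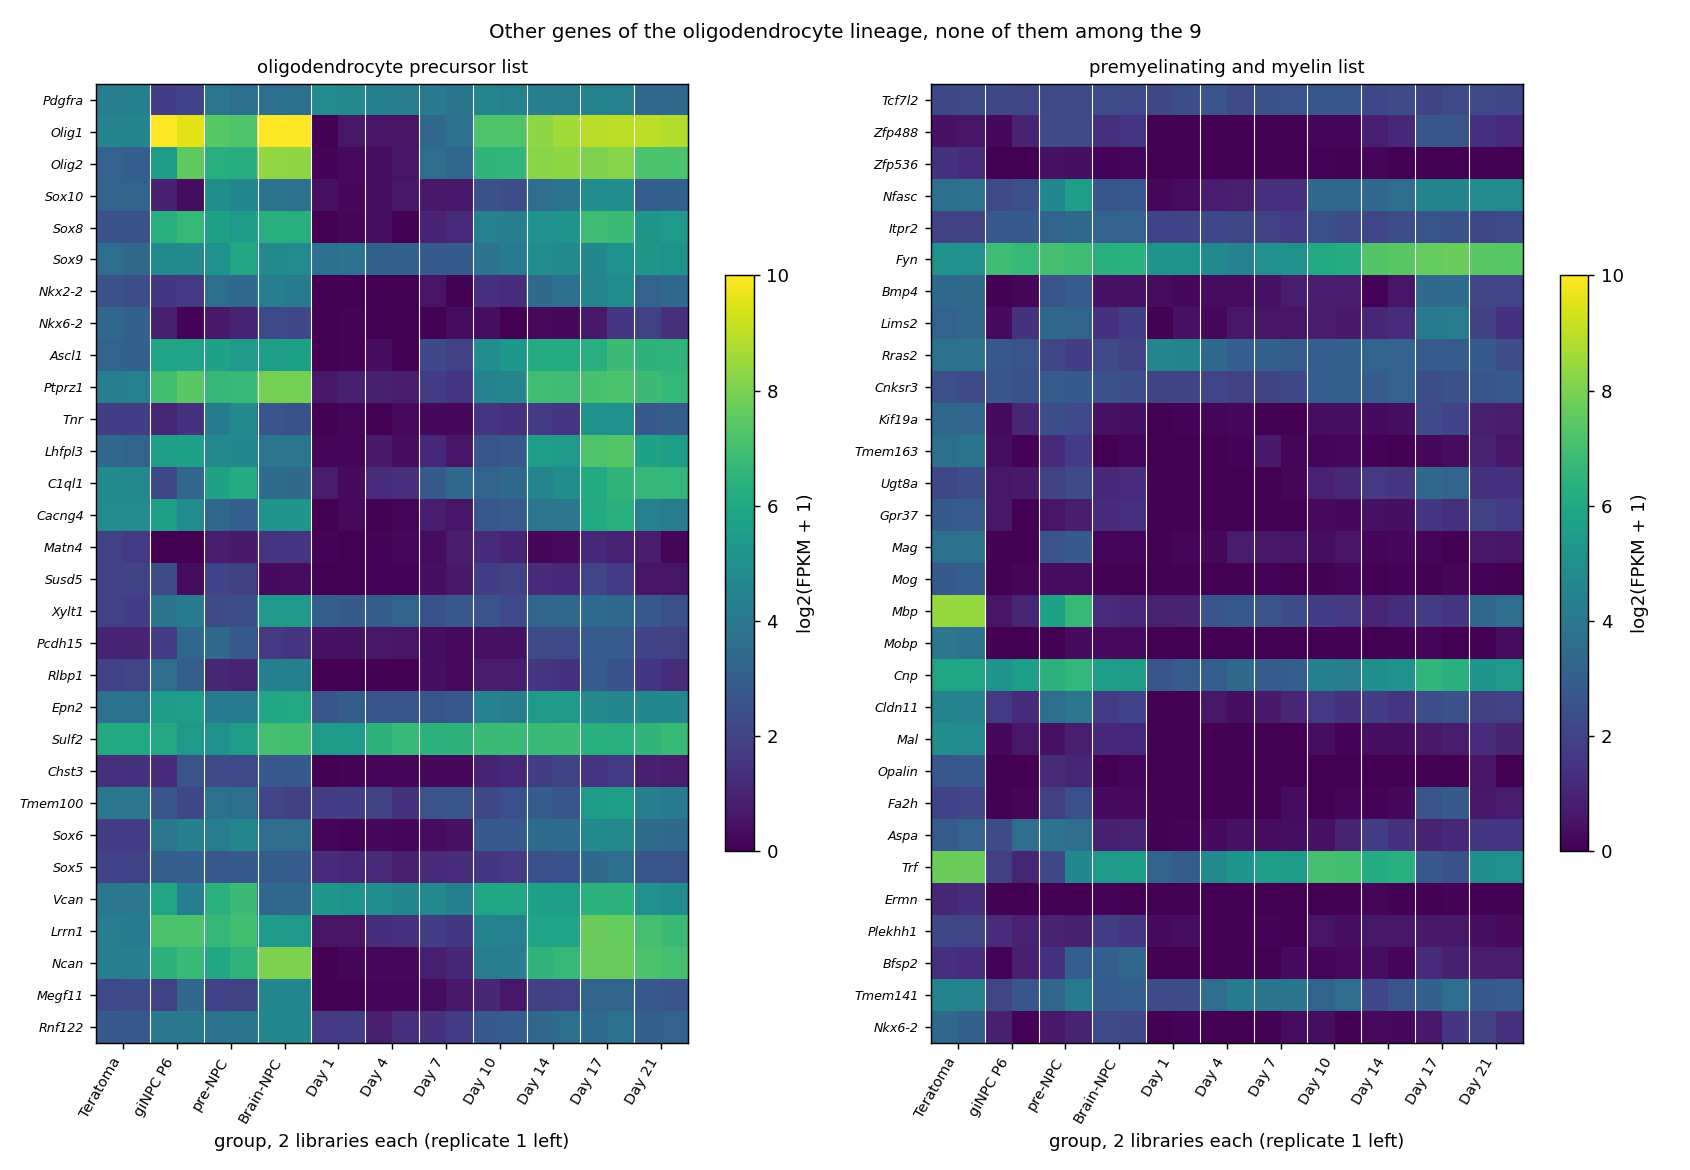
Level of the other lineage genes, log2(FPKM + 1) by colour, in each library (columns, 2 a group, replicate 1 left) for the precursor list (left) and 30 genes of the premyelinating and myelin list (right); colours stop at 10 on that scale. Olig1 and Olig2 are bright from Day 10 on, and Mbp is brightest in Teratoma and pre-NPC.

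The commitment genes were lower again on Day 21 than on Day 17, in a comparison also added after their levels had been seen. Of the 9, 7 were lower in both Day 21 libraries and none was higher in both, with Enpp6 and Nkx2-9 overlapping, where 28.2% of all genes were higher and 33.5% lower in the same sense. By limma 2.7% of all genes were called higher and 2.29% lower. Day 17 was 5.82 times as high as Day 21 for Neu4, on 5 and 4 counted reads at Day 21. It was 9.53 and 4.19 times as high without replicate 1 and 2 of Day 21. The ratio was 5.18 for Bcas1, 2.86 for Myrf, 2.28 for Cspg4, 2.25 for Luzp2 and 1.7 for Sirt2. The log2 difference was -3.55 ± 0.0575 for Gpr17, -2.33 ± 0.0463 for Bcas1 and 0.02 ± 0.184 for Enpp6 (SE). Of the 30 precursor genes 11 fell and 0 rose by limma (0 also at an unadjusted p under 0.05, by edgeR and by DESeq2), with a median log2 difference of -0.86 against 0 over all genes. Sox10, a transcription factor that runs through the whole lineage, had 6.94 and 7.69 FPKM on Day 21 and 29 and 28.7 on Day 17 (log2 difference -1.84 ± 0.18, limma adjusted p = 4.11e-06). The later list split, with 7 of 31 falling, 2 rising and a median of -0.03. Fa2h had 0.559 and 0.687 FPKM on Day 21 and 4.86 and 6.16 on Day 17 (log2 difference -2.0 ± 0.15, limma adjusted p = 3.57e-07). The 2 that rose (4 with a pseudocount of 0.1) were Trf and Mbp, and Mbp, which encodes a structural protein of compact myelin, had 9.28 and 10.8 FPKM on Day 21 and 2.34 and 1.91 on Day 17 (log2 difference 1.82 ± 0.24, limma adjusted p = 7.12e-05). The mural marker sum was 170 and 189 FPKM on Day 21 and 24.8 and 20.9 on Day 17, and 44.5 and 46 on Day 21 and 20.8 and 17.8 on Day 17 without Acta2. That of fibroblast markers was 525 and 543 on Day 21 and 286 and 251 on Day 17, and the part of either was not tested.

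Across the whole induction, Day 21 against Day 1, 7 of the 9 genes were higher in both Day 21 libraries, Cspg4 was lower in both and Nkx2-9 overlapped, where 48.0% of all genes were higher and 31.5% lower in the same sense. By limma 18.3% of all genes were called higher and 10.3% lower. On the log2 scale Bcas1 differed by 4.59 ± 0.109, Gpr17 by 3.25 ± 0.036, Enpp6 by 1.95 ± 0.161 and Sirt2 by 1.66 ± 0.031 (SE). Luzp2 differed by 1.41 ± 0.0836 and Myrf by 0.31 ± 0.091 on that scale, and Myrf turned to -0.12 under quantile normalization. Of the 30 precursor genes 24 rose and 1 fell, with a median of 2.51 against 0.12 over all genes. The 1 that fell, a call made by limma and by neither edgeR nor DESeq2 (0 lower by each), was Pdgfra, the receptor gene of precursors that fibroblasts also express, with 9.54 and 9.94 FPKM on Day 21 and 27.7 and 25.3 on Day 1 (log2 difference -1.36 ± 0.12, limma adjusted p = 1.11e-07). Of the 31 later genes 15 rose and 1 fell, with a median of 0.78. Nfasc had 27 and 27 FPKM on Day 21 and 0.146 and 0.259 on Day 1 (log2 difference 4.54 ± 0.21, limma adjusted p = 8.84e-11). This comparison shares the Day 1 libraries with that of Day 14, and it called 2871 genes higher and 1605 lower, against 2120 and 2157 under quantile normalization.

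In the primary clusters most commitment genes were higher than in the Day 21 culture, and a set of myelin genes was higher too. Both pre-NPC libraries were above both Day 21 libraries for 6 of the 9 genes and below for none, where 29.1% of all genes were higher and 38.9% lower in the same sense. By limma 4.05% of all genes were called higher and 8.21% lower. Gpr17 averaged 44.3 ± 12.4 FPKM in pre-NPC and 8.74 ± 0.156 on Day 21, and Bcas1 averaged 85.7 ± 21.7 in pre-NPC and 24.8 ± 1.17 on Day 21 (SD, n = 2 each). The ratio of pre-NPC to Day 21 was 6.51 for Neu4, on 5 and 4 counted reads at Day 21, with 10.7 and 4.69 without replicate 1 and 2 of Day 21. It was 5.75 for Myrf, 2.62 for Cspg4 and 1.42 for Sirt2. Enpp6, Luzp2 and Nkx2-9 overlapped, and the Enpp6 difference of 0.37 ± 0.673 (log2, SE) was 1.03 without replicate 1 of pre-NPC and -0.28 without replicate 2. The precursor list split into 6 higher and 4 lower of 30, with a median log2 difference of -0.09 against -0.03 over all genes. Sox10 had 30.4 and 24.6 FPKM in pre-NPC and 6.94 and 7.69 on Day 21 (log2 difference 1.77 ± 0.18, limma adjusted p = 2.02e-06). Olig1 went the other way, with 168 and 151 FPKM in pre-NPC and 519 and 458 on Day 21 (log2 difference -1.61 ± 0.24, limma adjusted p = 7.47e-05). Of the 31 later genes 11 rose and 2 fell, with a median of 0.66. Mbp had 51.9 and 102 FPKM in pre-NPC and 9.28 and 10.8 on Day 21 (log2 difference 2.74 ± 0.24, limma adjusted p = 5.41e-07). The 2 that fell were Trf and Gpr37, and 1 gene was called lower by edgeR, by DESeq2 and without replicate 1 of pre-NPC or of Day 21. Fibroblast markers summed to 75.2 and 107 FPKM in pre-NPC and 525 and 543 on Day 21. Mural markers summed to 25.5 and 30.2 in pre-NPC and 170 and 189 on Day 21, and the part of either list was not tested. Over all genes 634 were called higher and 1285 lower, against 795 and 1008 under quantile normalization, where the precursor list had 7 higher and 2 lower, 1171 and 1330 by edgeR and 1112 and 1359 by DESeq2.

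**Figure D5:**
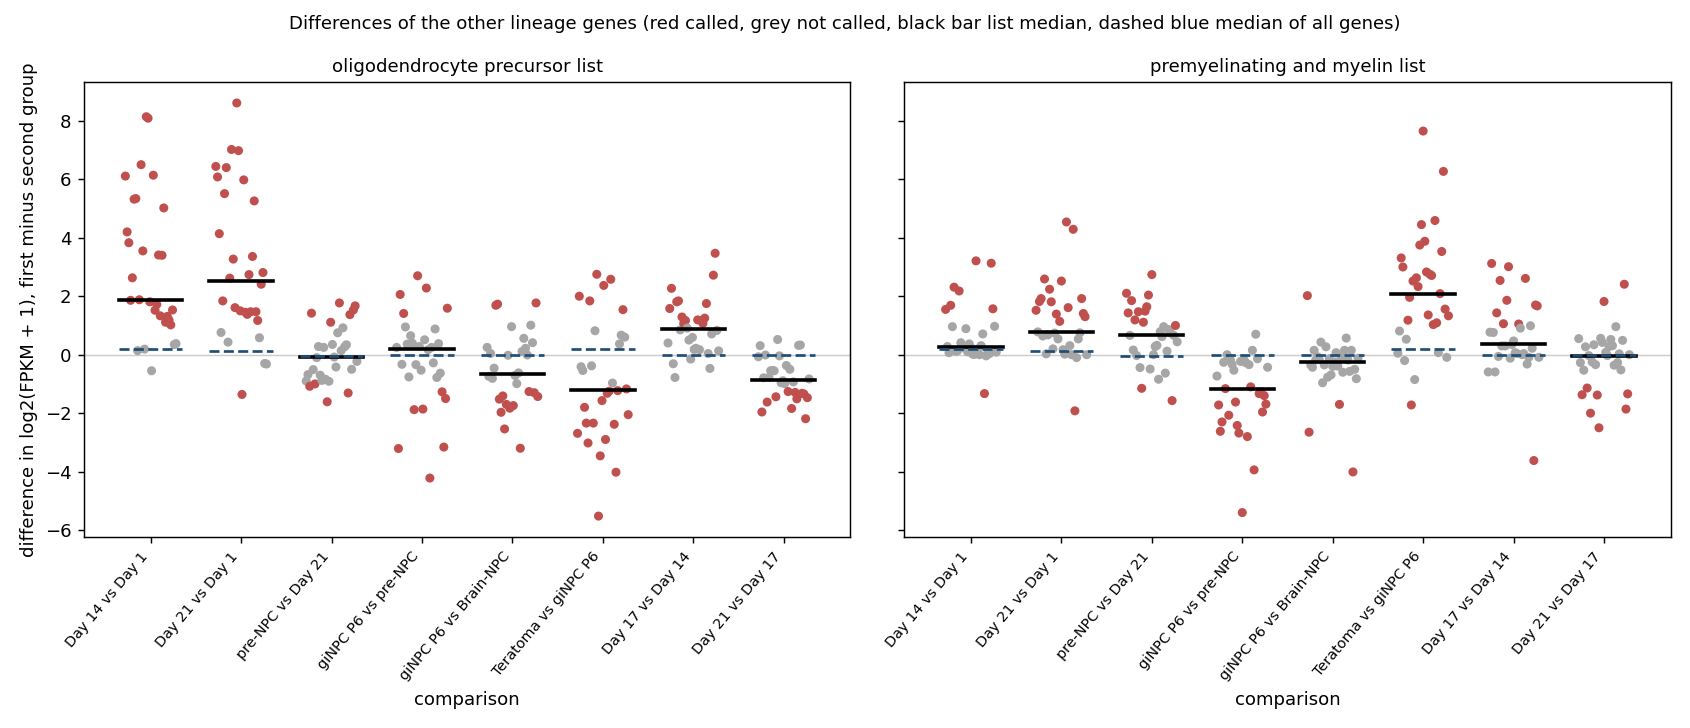
Difference in log2(FPKM + 1), first minus second group, of each gene of the precursor list (left) and of the premyelinating and myelin list (right) in 8 comparisons; red points are called, grey are not, black bars are list medians and dashed blue bars the median of all genes. The precursor list has its median at 1.87 at Day 14 against Day 1, and the later list at -1.16 in giNPC P6 against pre-NPC and at 2.09 in Teratoma against giNPC P6.

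The line had less of nearly every member than the clusters. Of the 9 genes, 8 were lower in both giNPC P6 libraries than in both pre-NPC libraries and none was higher, with Nkx2-9 at 0 in all 4, where 32.6% of all genes were higher and 31.8% lower in the same sense. By limma 6.87% of all genes were called higher and 5.9% lower. Gpr17 averaged 1.37 ± 1.46 FPKM in giNPC P6 and 44.3 ± 12.4 in pre-NPC (SD, n = 2 each). Bcas1 averaged 19.6 ± 0.319 FPKM in giNPC P6 and 85.7 ± 21.7 in pre-NPC, and Myrf 0.321 ± 0.109 in giNPC P6 and 5.44 ± 1.84 in pre-NPC. On the log2 scale the difference was -2.29 ± 0.656 for Enpp6, -1.55 ± 0.0509 for Neu4, -1.51 ± 0.272 for Luzp2 and -0.53 ± 0.26 for Sirt2 (SE). The value of Gpr17, -4.38 ± 0.728, was -3.71 without replicate 1 of giNPC P6 and -5.05 without replicate 2. For Cspg4 replicate 1 decided the size, since the difference of -0.99 ± 0.705 was -0.29 without it and -1.7 without replicate 2. Of the 31 premyelinating and myelin genes 17 fell and 0 rose by limma (1 at an unadjusted p under 0.05, 0 by edgeR and by DESeq2), with a median of -1.16 against 0 over all genes. Mbp had 0.474 and 1.06 FPKM in giNPC P6 and 51.9 and 102 in pre-NPC (log2 difference -5.40 ± 0.24, limma adjusted p = 6.91e-10). Nfasc had 3.58 and 4.47 FPKM in giNPC P6 and 24.1 and 47.7 in pre-NPC (log2 difference -2.80 ± 0.21, limma adjusted p = 9.39e-08). The precursor list held 5 genes that rose and 7 that fell of 30, with a median of 0.21, and 8 rose without replicate 1 of giNPC P6. Olig1 was among those that rose, with 1401 and 768 FPKM in giNPC P6 and 168 and 151 in pre-NPC (log2 difference 2.70 ± 0.24, limma adjusted p = 5.75e-07). Sox10 was among those that fell, with 0.855 and 0.248 FPKM in giNPC P6 and 30.4 and 24.6 in pre-NPC (log2 difference -4.22 ± 0.18, limma adjusted p = 4.49e-10). Over all genes 1075 were called higher and 924 lower, against 1098 and 1539 by edgeR and 996 and 1571 by DESeq2. Astrocyte markers, 7 of 7 at 1 FPKM or more in both groups, summed to 1017 and 819 FPKM in giNPC P6 and 1832 and 2877 in pre-NPC. Fibroblast markers summed to 6.0 and 3.21 in giNPC P6 and 75.2 and 107 in pre-NPC, and macrophage markers to 20.7 and 2.05 in giNPC P6, with Aif1 and Cx3cr1 at 0, and 62.3 and 122 in pre-NPC. The part of these cell types was not tested.

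Set against progenitors from brain, the line was lower in 5 of the 9 genes and higher in 2. Gpr17, Neu4, Myrf, Cspg4 and Luzp2 were lower in both giNPC P6 libraries than in both Brain-NPC libraries, Bcas1 and Sirt2 were higher, and Enpp6 and Nkx2-9 overlapped, where 31.9% of all genes were higher and 35.9% lower in the same sense. By limma 4.61% of all genes were called higher and 5.38% lower. Luzp2 differed by -3.45 ± 0.0165 and Myrf by -0.32 ± 0.084 on the log2 scale (SE). Bcas1 had a log2 difference of 1.66 ± 0.0212 and Sirt2 of 0.71 ± 0.149. The Gpr17 difference of -1.93 ± 0.672 was -1.26 without replicate 1 of giNPC P6 and -2.6 without replicate 2. That of Cspg4, -1.60 ± 0.706, was -0.89 without replicate 1 and -2.3 without replicate 2. Of the 30 precursor genes 3 rose and 11 fell, with a median of -0.67 against 0 over all genes. Sox10 had 0.855 and 0.248 FPKM in giNPC P6 and 13.5 and 12.6 in Brain-NPC (log2 difference -3.20 ± 0.18, limma adjusted p = 8.71e-09). Nkx2-2, which encodes a homeobox factor of the lineage, had 2.04 and 2.19 FPKM in giNPC P6 and 18.2 and 16.2 in Brain-NPC (log2 difference -2.54 ± 0.16, limma adjusted p = 2.81e-08). Of the 31 later genes 1 rose, Aspa, with 4.03 and 11 FPKM in giNPC P6 and 0.84 and 0.999 in Brain-NPC (log2 difference 2.02 ± 0.28, limma adjusted p = 6.69e-05). The 3 that fell were Trf, Bfsp2 and Nkx6-2, with a list median of -0.25. That count was 8 with a pseudocount of 0.1, 9 by edgeR, 6 by DESeq2 and 5 without replicate 2 of giNPC P6.

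Teratoma tissue had more of 7 of the 9 genes than the line, less of Sirt2 and an overlapping level of Cspg4, where 50.1% of all genes were higher and 33.5% lower in the same sense. By limma 30.0% of all genes were called higher and 5.98% lower. Myrf averaged 7.19 ± 0.611 FPKM in Teratoma and 0.321 ± 0.109 in giNPC P6, and Gpr17 averaged 11 ± 0.627 in Teratoma and 1.37 ± 1.46 in giNPC P6 (SD, n = 2 each). The Gpr17 difference of 2.48 ± 0.674 (log2, SE) was 1.81 without replicate 1 of giNPC P6 and 3.16 without replicate 2. Cspg4, at a log2 difference of 0.22 ± 0.707 (SE), was -1.14 under quantile normalization, -0.49 without replicate 1 of giNPC P6 and 0.92 without replicate 2. Luzp2 differed by 3.0 ± 0.0206, Enpp6 by 1.19 ± 0.0558, Bcas1 by 0.30 ± 0.0267 and Sirt2 by -0.38 ± 0.144 on the log2 scale (SE). Under quantile normalization the difference of Enpp6 became -0.06, that of Neu4 -0.02 in place of 0.69 and that of Nkx2-9 0.02 in place of 0.27, so 4 of the 7 that were higher kept a difference above 0.02. Myelin genes were high: 23 of 31 rose and 1 fell (2 with a pseudocount of 0.1), with a median of 2.09 against 0.18 over all genes. Mbp had 353 and 345 FPKM in Teratoma and 0.474 and 1.06 in giNPC P6 (log2 difference 7.65 ± 0.24, limma adjusted p = 1.89e-13). Fyn, which encodes a kinase, was the 1 that fell, with 34.6 and 31.4 FPKM in Teratoma and 119 and 103 in giNPC P6 (log2 difference -1.72 ± 0.11, limma adjusted p = 9.97e-10). The precursor list went the other way, with 6 of 30 rising, 16 falling and a median of -1.2. Olig1 had 21.4 and 21.8 FPKM in Teratoma and 1401 and 768 in giNPC P6 (log2 difference -5.52 ± 0.24, limma adjusted p = 1.12e-11). Sox10 was among the 6 that rose, with 8.17 and 8.01 FPKM in Teratoma and 0.855 and 0.248 in giNPC P6 (log2 difference 2.58 ± 0.18, limma adjusted p = 3.33e-09). Quantile normalization shifted the median of all genes to -0.25 and gave 2688 genes higher and 3320 lower, against 4695 and 936, with 17 higher and 4 lower in the myelin list. Leaving out replicate 1 or 2 of Teratoma left 3023 and 3055 genes called higher. Neuron markers, 7 of 7 at 1 FPKM or more in Teratoma and 5 of 7 in giNPC P6, summed to 597 and 587 FPKM in Teratoma and 58.8 and 19.9 in giNPC P6. The part of any other tissue of the tumour in these levels was not tested.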

How the data were processed

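Poly(A)-enriched RNA was sequenced as paired-end reads, 2 libraries in each of 11 groups. Per the submitters' processing notes, the authors used TopHat2 (2.0.12), HTSeq (0.6.0), Cufflinks (2.2.1), edgeR and the mm9 build. The deposited files hold HTSeq read counts per RefSeq transcript and Cufflinks FPKM per transcript with confidence intervals. No strand setting is given in the sources used here, and antisense reads cannot be told apart. Of the reads HTSeq listed, 20.86% to 27.09% fell in transcripts, 3084428 to 9689996 per library, and 6.15% to 7.79% were ambiguous. Reads shared by transcripts of 1 gene, as for Bcas1 and Sirt2, are lost from such counts, so FPKM summed by gene was the measure. Of the FPKM files' transcripts, 637 of 28842 carried no gene name and were left out. No column of another sample was used.

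Log2(FPKM + 1) of 15658 genes with at least 1 FPKM in 2 libraries was fitted with limma (3.58.1, R 4.3.3) with an intensity trend, all 22 libraries in 1 model with no block, and p-values were adjusted by Benjamini-Hochberg. The alternatives were a pseudocount of 0.1, no filter, quantile normalization, a replicate block, edgeR's quasi-likelihood test (4.0.16) and DESeq2 (1.42.0) on the deposited counts, and leaving out each library. The scripts were tested on simulated data. The members and the gene lists were chosen with earlier results of these data known, and the comparisons of Day 17 with Day 14 and of Day 21 with Day 17 were added after the members' levels were seen. Of each other list, the genes named with values in a comparison are taken from up to 3 called genes with the highest and up to 3 with the lowest difference whose libraries did not overlap, and for likeness the 3 genes with the highest r to a member. Counts of members are set beside the share of the 15658 genes whose libraries did not overlap either, and the mural sum without Acta2 and the ratios without 1 library were added after the values were seen. Other genes of the text are markers of a cell type or sex, named as checks. The values of 1 gene of the premyelinating and myelin list are not reported here, and it is counted in the list.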

Additional observations from a re-analysis of the deposited data

How the results depend on the processing

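Of 480 counts of genes or list members under other settings, 436 were within 1.5 times the value reported. Of 296 values behind 37 member differences of at least 1 log2 unit, 290 kept that size and direction. Those differences were picked for their size. The largest transcript alone, 1 of the settings, cannot change genes with 1 transcript, so this share is a description only. Under quantile normalization the Enpp6 difference between Teratoma and giNPC P6 was -0.06 against 1.19, that of Neu4 -0.02 against 0.69, of Nkx2-9 0.02 against 0.27 and of Cspg4 -1.14 against 0.22; the genes called higher were 1562 at Day 14 against Day 1 and 2688 in Teratoma against giNPC P6, with 3320 lower and 4 myelin genes lower, and 2 precursor genes were lower in pre-NPC against Day 21. The cause was not tested. With a pseudocount of 0.1, 14 myelin genes were higher at Day 14 against Day 1, 8 lower in giNPC P6 against Brain-NPC, 2 lower in Teratoma and 4 higher at Day 21 against Day 17, and the genes called higher and lower were 1157 and 2020 for pre-NPC against Day 21, 1247 and 1418 for giNPC P6 against Brain-NPC, 1196 and 1680 for Day 17 against Day 14, and 819 and 631 for Day 21 against Day 17, with 1799 lower in giNPC P6 against pre-NPC. By edgeR and DESeq2 the genes lower were 1723 and 1706 at Day 14 against Day 1 and 1539 and 1571 in giNPC P6 against pre-NPC, and the genes higher 1171 and 1112 in pre-NPC against Day 21 and 1114 and 1104 in giNPC P6 against Brain-NPC. By edgeR 1499 genes were lower in Teratoma, and by DESeq2 691 were higher at Day 21 against Day 17. The myelin genes lower by edgeR and DESeq2 were 2 and 2 at Day 14 against Day 1, 2 and 2 at Day 17 against Day 14, 1 and 1 in pre-NPC against Day 21, and 9 and 6 in giNPC P6 against Brain-NPC, and 0 precursor genes were lower at Day 21 against Day 1 by either. Leaving out 1 library left 1 to 2 myelin genes lower in pre-NPC against Day 21, 5 to 8 precursor genes higher in giNPC P6 against pre-NPC, 3 to 5 myelin genes lower in giNPC P6 against Brain-NPC and 3023 to 4758 genes higher in Teratoma against giNPC P6; a group left with 1 library is assumed to vary like the others. A replicate block gave 2453 genes higher and 1089 lower at Day 14 against Day 1, and 4 precursor genes in place of 3 higher in giNPC P6 against Brain-NPC. Deviations of libraries with the same number correlated between -0.07 and 0.08, so no deviation shared by number was seen. Such a check cannot exclude that libraries were paired, since a pairing need not leave a shared deviation. With 2 libraries a group and few counted reads for Neu4, Enpp6, Luzp2 and Nkx2-9 below 1 FPKM, small differences of these genes were not detectable at this depth.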
